A study of Mus musculus with 14 samples.

Results

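JunB was deleted by tamoxifen in the Foxp3-expressing regulatory T cells (Tregs) of adult mice, and the Tregs of the colon lamina propria (coLP) were profiled by RNA-seq 7 days after the first dose. These colonic libraries were 6 of the 14 libraries of the series, 3 from iKO and 3 from iHET mice, and were chosen by the organ, the mouse line and the genotype in their labels. The iKO mice were Junb F/F and the iHET mice Junb F/+, so the iHET controls carried 1 floxed allele as well. All 6 mice carried Foxp3-EGFP-cre-ERT2 and the Rosa26-STOP-tdTomato reporter, were 10 to 12 weeks old, and were given 8 mg of tamoxifen in olive oil by gavage on days 0, 1 and 3. Floxed mice had been backcrossed to C57BL/6, and the genotypes compared were co-housed littermates. Each library came from 1 mouse and from cells sorted as TCRb+CD4+Foxp3(EGFP)+tdTomato+. The Cre is made only in cells that express Foxp3, and tdTomato reports that it was active at the reporter, not at Junb. The study housed 1 iHET and 1 iKO mouse per cage, and the number in the library names was taken as the cage. The mice numbered 1 were male and those numbered 2 and 3 female in both genotypes, so cage 1 and sex cannot be told apart.

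JunB is a subunit of activator protein 1 (AP-1), a family of leucine zipper factors that bind DNA as dimers of Jun with Fos, ATF or BATF proteins. In T cells it also acts with IRF4 on composite elements. Colonic Tregs restrain responses to food and microbes, and include cells that depend on the microbiota and ST2+ cells that respond to tissue damage. They differ from Tregs of lymphoid tissue in effector molecules such as granzymes and in the chemokine receptors that place them in the gut.

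Each library held between 29665561 and 35508709 counts, so that 3 counts corresponded to between 0.0845 and 0.101 CPM (counts relative to library size). Pearson's r between libraries, on log2 CPM, lay between 0.928 and 0.977. Foxp3 was found at 76.6 to 150 CPM, Cd4 at 991 to 1150 CPM and Ctla4 at 2202 to 3084 CPM in the 6 libraries. The cells were sorted on CD4 and Foxp3(EGFP), so these levels do not measure purity. Transcripts of other cells were present too. The summed CPM of 15 epithelial markers was 872, 1402 and 443 in iHET and 401, 1212 and 3533 in iKO mice of cages 1, 2 and 3, and that of 9 markers of stroma and endothelium was 195, 521 and 351 against 1062, 935 and 187. In sorted bulk samples, fewer cells of a type and less RNA per cell cannot be told apart.

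Junb, the deleted gene, was among the most abundant transcripts of iHET Tregs and was almost uniform in iKO Tregs. It was at 6652, 8158 and 7287 CPM in the iHET mice of cages 1, 2 and 3, against 975, 963 and 987 CPM in their iKO littermates. The groups were far apart, and the iKO mice differed from one another by less than the iHET mice did. Junb fell from 7365 ± 756 CPM (SD, n = 3) to 975 ± 12.2 CPM, which left 13.2% of the iHET level. The iHET mice had 1 floxed allele, the same Cre and the same tamoxifen, so their level need not be that of mice without a floxed allele. On the log2 scale Junb fell by 2.91 (standard error 0.116, 95% interval -3.20 to -2.62, adjusted p = 0.0183 by edgeR's quasi-likelihood test). By length, Junb had the highest level of the 16 AP-1 genes and partners listed, with 3201 RPKM (CPM per kilobase of exon) in iHET Tregs, followed by Fos at 1005 and Jund at 828 RPKM. In iKO Tregs Junb was at 424 RPKM, below Fos, Jund and Jun. Junb lies on chromosome 8 of GRCm38 from 84974484 to 84978718 (ENSMUSG00000052837.6), and shares 173 exon bases with Prdx2.

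How many other genes differed depended on the test. Genes reaching 1 CPM in 3 or more libraries, 16313 in number, entered a model with cage as a term. The quasi-likelihood test, which carries the uncertainty of each gene's dispersion, called Junb alone at a false discovery rate (FDR) of 0.05, or 0.00613% of the genes. At an unadjusted p under 0.05 it found 632 genes, or 3.87%, and the likelihood ratio test 588, or 3.6%. The likelihood ratio test, which the study used and which takes the dispersion as known, called 25 genes (0.153%), of which 18 were lower (0.11%) and 7 higher (0.0429%) in iKO Tregs. With no term for cage it called 5 of these, namely Junb, Nckap5, Lta, Tox2 and Ccr1. DESeq2's Wald test called 50 genes, which held all 25. Below, called means called by the likelihood ratio test, whose adjusted p is given, and calls that DESeq2 alone made are named as such. In the quasi-likelihood test their adjusted p was 0.947 in each case.

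Of the 25 genes, 14 lower and 3 higher ones had groups that did not overlap. Over all genes tested, all 3 iKO libraries were below all 3 iHET libraries for 4.49% and above them for 3.81%, or 8.3% in either direction. The direction was the same in all 3 cages for 24 of the 25 genes, Aqp8 being the exception. Of all genes tested, 14.4% were lower and 12.9% higher in the iKO mouse of every cage. The 25 genes were picked by a test on these same libraries, so neither count is separate support for them. An exact permutation test of 3 against 3 libraries that ignores cage cannot give a p under 0.1 for any single gene. Exchange within cages only would allow fewer arrangements, so its smallest p would be higher.

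**Figure D1:**
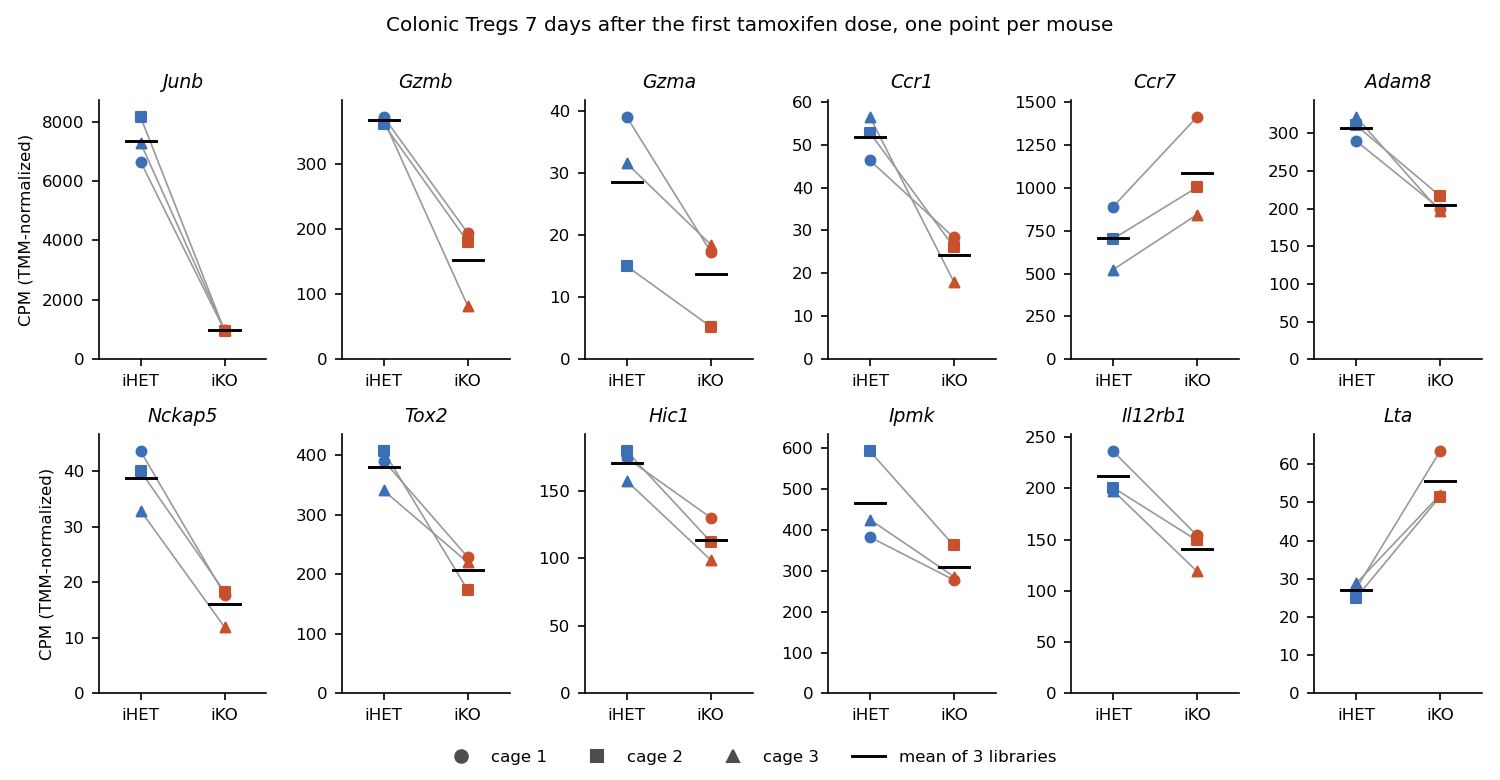
Expression of 12 genes in colonic Tregs, in TMM-normalized CPM on linear axes from 0. Each point is 1 mouse (blue iHET, orange iKO), grey lines join the mice of a cage, and black bars are means of 3 libraries. Junb is at 963 to 987 CPM in all 3 iKO mice, and 9 genes are lower and Ccr7 and Lta higher in the iKO mouse of each cage.

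The granzymes A and B, serine proteases of cytotoxic granules that Tregs can use to kill target cells, were lower in iKO Tregs. Gzmb (ENSMUSG00000015437.5, chromosome 14 from 56258838 to 56262260) was at 371, 360 and 367 CPM in iHET and at 194, 180 and 82.0 CPM in iKO mice. The iHET mice were nearly equal, and every iKO mouse was below them, the one of cage 3 by the most. Its log2 fold change was -1.36 (standard error 0.256, 95% interval -2.003 to -0.72, likelihood ratio adjusted p = 0.00219), and -0.97 when cage 3 was left out. Gzma (ENSMUSG00000023132.8, chromosome 13 from 113093825 to 113100981) was at 39.1, 15.01 and 31.6 CPM in iHET and 17.3, 5.25 and 18.5 CPM in iKO mice. It was lowest in both mice of cage 2, so the groups overlapped, but the iKO mouse was lower in each cage. The log2 fold change of Gzma was -1.15 (standard error 0.192, likelihood ratio adjusted p = 0.0183).

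The promoters of the called genes were searched for TGANTCA, the consensus bound by AP-1 dimers, which reads the same on both strands. RefSeq windows from 250 bases before to 50 bases after a transcription start (build GRCm38.p6) were at hand for 19 of the 25 genes, 26 windows in all. Only 1 window, that of Gzmb, held the motif, against 7.81% of all 32851 windows. The match lies 58 to 52 bases before the RefSeq start. That start lies upstream of the gene end at 56262260 given above, which comes from another annotation, so the distance from that end is greater. The 250 bases upstream of both granzyme genes are shown because Gzmb holds the match and Gzma does not, although both were lower. Each is on the minus strand and is written 5′ to 3′ in the direction of transcription, with the motif in capitals, for Gzmb at chr14:56262335-56262584 and for Gzma at chr13:113100982-113101231.
Gzmb: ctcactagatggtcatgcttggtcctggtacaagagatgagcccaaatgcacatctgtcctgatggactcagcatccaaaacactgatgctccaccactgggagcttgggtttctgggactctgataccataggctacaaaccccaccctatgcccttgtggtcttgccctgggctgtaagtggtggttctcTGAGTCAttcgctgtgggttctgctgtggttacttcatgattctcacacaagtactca
Gzma: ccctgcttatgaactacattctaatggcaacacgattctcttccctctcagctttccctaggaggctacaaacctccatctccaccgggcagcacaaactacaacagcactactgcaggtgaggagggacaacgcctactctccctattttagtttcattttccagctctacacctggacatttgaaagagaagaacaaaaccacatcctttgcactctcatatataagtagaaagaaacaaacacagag
A match is a run of letters and not a measured binding site.

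The cytotoxic list as a whole had no common direction. Of 14 listed genes that were tested, 8, with Gzma and Gzmb among them, were lower and 6 higher. Their median log2 fold change was -0.05 (-0.28, -0.13 and 0.13 without cage 1, 2 or 3), against 0.00479 over all genes tested. Gzma and Gzmb were the only members called by the likelihood ratio test. Prf1, which encodes the pore-forming perforin that delivers granzymes, was at 6.36 to 9.74 CPM in iHET and 3.32 to 11.0 CPM in iKO mice, with a log2 fold change of -0.12 (95% interval -0.93 to 0.68). Srgn, the proteoglycan that packs granules, had one of -0.06 (95% interval -0.54 to 0.41). Ctsw, which encodes cathepsin W, was at 71.0, 57.3 and 68.8 CPM in iHET and at 108, 89.7 and 95.8 CPM in iKO mice. All 3 iKO values were above all iHET values, with a log2 fold change of 0.58 (likelihood ratio adjusted p = 0.0779), and DESeq2 called it.

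Receptors that guide T cells were among the called genes, in both directions. Ccr1, a receptor for CCL3 and CCL5, was at 46.3, 52.8 and 56.4 CPM in iHET and 28.4, 26.1 and 18.04 CPM in iKO mice, without overlap. The log2 fold change of Ccr1 was -1.12 (standard error 0.206, likelihood ratio adjusted p = 0.0148). Ccr1 lies on chromosome 9 from 123962124 to 123968692.

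Ccr7, which guides T cells to lymph nodes along CCL19 and CCL21, went the other way. It was at 891, 703 and 523 CPM in iHET and at 1415, 1004 and 844 CPM in iKO mice. The ranges overlapped, but the iKO mouse was the higher one in each cage, by 0.67, 0.51 and 0.69 on the log2 scale. The fitted log2 fold change of Ccr7 was 0.62 (standard error 0.102, likelihood ratio adjusted p = 0.0118).

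Among the 18 chemokine receptors and related receptors tested, 11 were lower and 7 higher in iKO Tregs, with a median of -0.19 (-0.11, -0.13 and -0.16 without cage 1, 2 or 3). The groups did not overlap for 6 genes, all of them lower (over all genes tested, 4.49% were lower and 3.81% higher without overlap). Among them were Ccr1, Ccr2, Ccr9, Ccr4 and Gpr15. Ccr2 was at 447, 253 and 237 CPM in iHET and 209, 193 and 173 CPM in iKO mice, with a log2 fold change of -0.65, and was called by DESeq2 but not by the likelihood ratio test (adjusted p = 0.227). The small intestinal homing receptor Ccr9 had one of -0.72 (95% interval -1.23 to -0.21), although 2201 of its exon bases overlap other genes. Gpr15, a receptor for homing to the large intestine, had one of -0.16 (95% interval -0.43 to 0.11). Ccr6 was at 94.7 to 136 CPM in iHET and 112 to 162 CPM in iKO mice, and its groups overlapped.

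Adam8, a metalloprotease that sheds adhesion molecules, was at 290, 311 and 321 CPM in iHET and 200, 217 and 196 CPM in iKO mice. The groups were well apart, and the log2 fold change was -0.59 (standard error 0.0985, likelihood ratio adjusted p = 0.0218). It was the only called member of a list of 20 genes of homing, retention and egress, of which 16 were lower and 4 higher (median -0.13, or -0.08, -0.16 and -0.12 without cage 1, 2 or 3). Cd44, Itgb7 and Adam17 were also lower without overlap, as were 4.49% of all genes tested. Of all genes tested, 49.2% had a log2 fold change below 0. Itgb7, the beta chain of the gut homing integrin, was at 1751, 1652 and 1984 CPM in iHET and at 1371, 1520 and 1490 CPM in iKO mice. Its log2 fold change was -0.30 (95% interval -0.58 to -0.01).

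Of cytokine genes, Lta was the only one called. It encodes lymphotoxin alpha, a TNF family ligand for the organization of lymphoid tissue. Lta was at 27.4, 25.1 and 28.8 CPM in iHET and 63.4, 51.5 and 52.0 CPM in iKO mice. The iKO mean was 205% of the iHET mean, and the groups were wide apart (log2 fold change 1.03, standard error 0.134, likelihood ratio adjusted p = 0.000483). Ltb, which pairs with it on the cell surface, had a log2 fold change of 0.34 (95% interval -0.08 to 0.76).

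Of 14 T helper cytokine genes tested, 5 were lower and 9 higher (median 0.16, or 0.11, 0.27 and 0.17 without cage 1, 2 or 3). Il3 had no more than 3 counts in any library, and no member but Lta was called by the likelihood ratio test. Il17a was at 15.2, 17.7 and 19.5 CPM in iHET and at 9.96, 7.36 and 10.6 CPM in iKO mice (log2 fold change -0.92, 95% interval -1.43 to -0.40). Il17f was at 16.3, 20.9 and 18.5 against 11.1, 6.33 and 14.3 CPM. In both genes of the IL-17 family every iKO value was below every iHET value. Ifng was at 17.2, 13.05 and 13.2 CPM in iHET and at 23.7, 29.1 and 21.8 CPM in iKO mice (log2 fold change 0.78, 95% interval 0.30 to 1.26). Csf2, which encodes GM-CSF, was at 2.75, 1.13 and 5.34 against 7.44, 8.16 and 8.11 CPM. For Ifng and Csf2 every iKO value was above every iHET value. Over all genes tested, 4.49% were lower and 3.81% higher without overlap. Il17a, Il17f, Ifng and Csf2 were called by neither the likelihood ratio test nor DESeq2, and the intervals are not adjusted for the number of genes.

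Il12rb1, the receptor chain that IL-12 and IL-23 share, was at 236, 201 and 198 CPM in iHET and 154, 149 and 119 CPM in iKO mice. Its log2 fold change was -0.59 (standard error 0.105, likelihood ratio adjusted p = 0.0311), and the groups did not overlap. Il23r, the partner chain for IL-23, was at 12.9, 21.4 and 16.8 CPM against 8.76, 8.67 and 10.5 CPM, also without overlap (log2 fold change -0.84, 95% interval -1.40 to -0.29, likelihood ratio adjusted p = 0.790).

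Il23r belongs to a list of 7 genes of the microbiota-dependent subset, and all 7 were lower in iKO Tregs. Their median log2 fold change was -0.28, none was called except Ccr2 by DESeq2 alone, and the groups did not overlap for Ccr2, Il23r and Maf. The summed level of the 7 genes was 1929 to 2226 CPM in iHET and 1627 to 1710 CPM in iKO mice. Maf, a factor that drives this subset and Il10, was at 291, 243 and 243 CPM in iHET and at 199, 192 and 210 CPM in iKO mice (log2 fold change -0.37, 95% interval -0.64 to -0.09). Il10 had a log2 fold change of -0.19 (95% interval -0.49 to 0.10). Over all genes tested, 49.2% had a log2 fold change below 0, and 4.49% were lower without overlap. The list was written with earlier results of these data known, so its count is not separate support for a change of the subset.

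The ST2+ subset and the subset with a lymphoid tissue profile were less uniform in direction. Of 8 genes of the ST2+ subset, 6 were lower and 2 higher (median -0.07, or -0.10, -0.01 and -0.07 without cage 1, 2 or 3), and no groups were apart. Gata3 had a log2 fold change of -0.12 (95% interval -0.37 to 0.13) and Il1rl1, which encodes ST2, one of -0.19 (95% interval -0.54 to 0.16). Of 9 tested genes of lymphoid tissue Tregs, 6 were higher and 3 lower (median 0.22, or 0.36, 0.25 and 0.03 without cage 1, 2 or 3). Ccr7 was the only member called, and Tcf7 and Lef1 had log2 fold changes of 0.29 (95% interval -0.26 to 0.85) and 0.22 (95% interval -0.16 to 0.60).

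**Figure D2:**
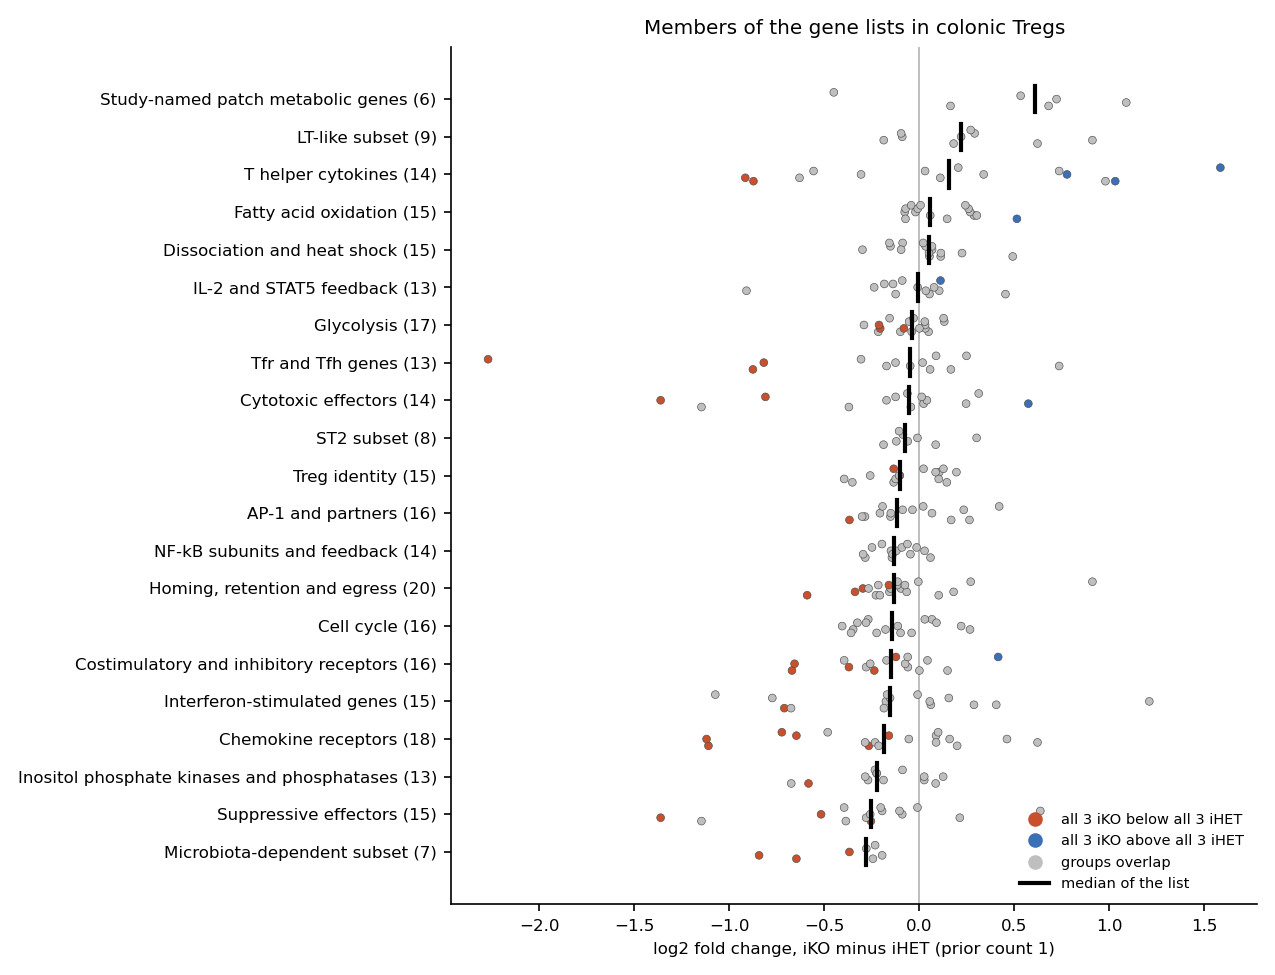
Log2 fold changes (iKO minus iHET, prior count 1) of the tested members of 21 gene lists in colonic Tregs, 1 point per gene, with the number tested in brackets. Junb is left out as a point but kept in its list's median. Black bars are medians, which run from -0.28 for the microbiota-dependent subset to 0.61 for the study's patch metabolic genes, and coloured points are genes whose 3 iKO and 3 iHET values do not overlap.

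Of the called genes besides Junb, Tox2 and Hic1 encode transcription factors, and DESeq2 alone called Hlf, another such gene. Tox2, an HMG box factor found in T follicular and activated T cells, was at 391, 407 and 341 CPM in iHET and 229, 174 and 220 CPM in iKO mice. The groups were well apart, and the log2 fold change was -0.87 (standard error 0.142, 95% interval -1.23 to -0.52, likelihood ratio adjusted p = 0.00103). Hic1, a zinc finger repressor induced by retinoic acid in intestinal T cells, was at 174, 179 and 157 against 130, 112 and 98.9 CPM (log2 fold change -0.59, likelihood ratio adjusted p = 0.0351). Tox2 was the only called gene among 13 tested genes of follicular cells, of which 7 were lower and 6 higher (median -0.05, or -0.12, 0.04 and -0.12 without cage 1, 2 or 3). Bcl6, the factor that defines follicular cells, had a log2 fold change of -0.05 (95% interval -0.40 to 0.31).

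No other AP-1 gene or partner was called. Of the 16 listed, 10 were lower and 6 higher with Junb included (median -0.12, or -0.15, -0.02 and -0.13 without cage 1, 2 or 3). The 2 other Jun genes, Jun and Jund, had log2 fold changes of 0.02 (95% interval -0.70 to 0.74) and -0.03 (95% interval -0.30 to 0.23). Batf had one of 0.24 (95% interval -0.12 to 0.59). Irf4 was at 271, 388 and 288 CPM in iHET and at 240, 304 and 230 CPM in iKO mice, and was lower in the iKO mouse of each cage (log2 fold change -0.28, 95% interval -0.53 to -0.04).

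The Treg identity genes, 15 in number, included no called gene. Of them 8 were lower and 7 higher (median -0.10, or -0.06, -0.09 and -0.01 without cage 1, 2 or 3), and their summed level was 11478 to 12748 CPM in iHET and 11062 to 11439 CPM in iKO mice. Members expressed by T cells in general, Cd4, Cd3e and Trac, were at 93.1%, 91.0% and 91.3% of their iHET means. The part of such a shift in the counts of the other lists was not tested. Foxp3 was at 150, 136 and 112 CPM in iHET and 112, 129 and 76.6 CPM in iKO mice (log2 fold change -0.35, 95% interval -0.66 to -0.04). It was lower in the iKO mouse of each cage, but the groups overlapped, and 1443 of its exon bases are shared with another gene. Il2ra, which encodes CD25, had a log2 fold change of 0.11 (95% interval -0.20 to 0.42), and Ctla4 one of -0.26 (95% interval -0.59 to 0.08).

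Suppressive effector genes were mostly lower, with Gzma and Gzmb the only called members. Of 15 tested, 13 were lower and 2 higher (median -0.25, or -0.29, -0.17 and -0.13 without cage 1, 2 or 3). Gzmb, Fgl2 and Nt5e were lower with groups that did not overlap, as were 4.49% of all genes tested. A log2 fold change below 0 was found for 49.2% of all genes tested. Fgl2, which encodes a secreted fibrinogen-like protein that inhibits dendritic cells, was at 480, 622 and 576 CPM in iHET and 331, 392 and 452 CPM in iKO mice. Its log2 fold change was -0.52 (95% interval -0.79 to -0.24, likelihood ratio adjusted p = 0.159), and DESeq2 called it. Il12a, a subunit of IL-35, had no more than 3 counts in any library.

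Of 16 costimulatory and inhibitory receptors, 12 were lower and 4 higher (median -0.15, or -0.30, -0.10 and -0.13 without cage 1, 2 or 3). None was called except Havcr2 by DESeq2 alone. The groups were apart and lower for Havcr2, Icos, Tnfrsf8, Tnfrsf1b and Cd28, and apart and higher for Cd160. Those of Cd28 were only narrowly apart, with an iKO mean at 91.8% of the iHET mean. The shares over all genes tested were 4.49% and 3.81%, and 49.2% of all genes had a log2 fold change below 0. Icos was at 867, 810 and 875 CPM in iHET and 647, 673 and 654 CPM in iKO mice (log2 fold change -0.37, 95% interval -0.62 to -0.12). Havcr2, which encodes TIM-3, was at 52.3, 73.4 and 89.5 against 39.4, 49.2 and 44.1 CPM (log2 fold change -0.67). Pdcd1, which encodes PD-1, was at 614, 949 and 1054 CPM in iHET and 687, 737 and 849 CPM in iKO mice, with groups that overlapped.

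The remaining called genes of lower level had varied roles. Nckap5, a little studied gene named after the adaptor NCK, was at 43.6, 40.03 and 33.0 CPM in iHET and at 17.8, 18.3 and 11.98 CPM in iKO mice. It had the lowest likelihood ratio p after Junb among genes with groups that did not overlap (log2 fold change -1.29, standard error 0.144, adjusted p = 2.32e-05). Ipmk, an inositol phosphate kinase, was at 382, 592 and 425 CPM in iHET and 277, 362 and 286 CPM in iKO mice, and the likelihood ratio test gave it an adjusted p of 0.0311. Of 13 inositol phosphate kinases and phosphatases, 9 were lower and 4 higher (median -0.22, or -0.07, -0.26 and -0.27 without cage 1, 2 or 3), and Ipmk was the only one called. Inpp5d, which encodes the phosphatase SHIP-1, had a log2 fold change of -0.27 (95% interval -0.53 to -0.01).

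Cpd, a membrane carboxypeptidase, was at 203, 198 and 145 CPM in iHET and 108, 128 and 90.0 CPM in iKO mice (log2 fold change -0.74, likelihood ratio adjusted p = 0.000768). The sulfotransferase gene Chst2 was at 111, 95.6 and 126 against 72.9, 65.5 and 85.6 CPM (log2 fold change -0.57, likelihood ratio adjusted p = 0.0400). Npnt, which encodes the matrix protein nephronectin, was at 68.0, 167 and 157 against 47.5, 109 and 93.1 CPM (log2 fold change -0.63, likelihood ratio adjusted p = 0.0148). Frmd5 and Tpbgl had log2 fold changes of -0.95 and -0.94 (likelihood ratio adjusted p = 0.0311 and 0.0223), and 1168 exon bases of Tpbgl overlap Gm10605. Npnt was low in both mice of cage 1, and of these 5 genes it alone had groups that overlapped.

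**Figure D3:**
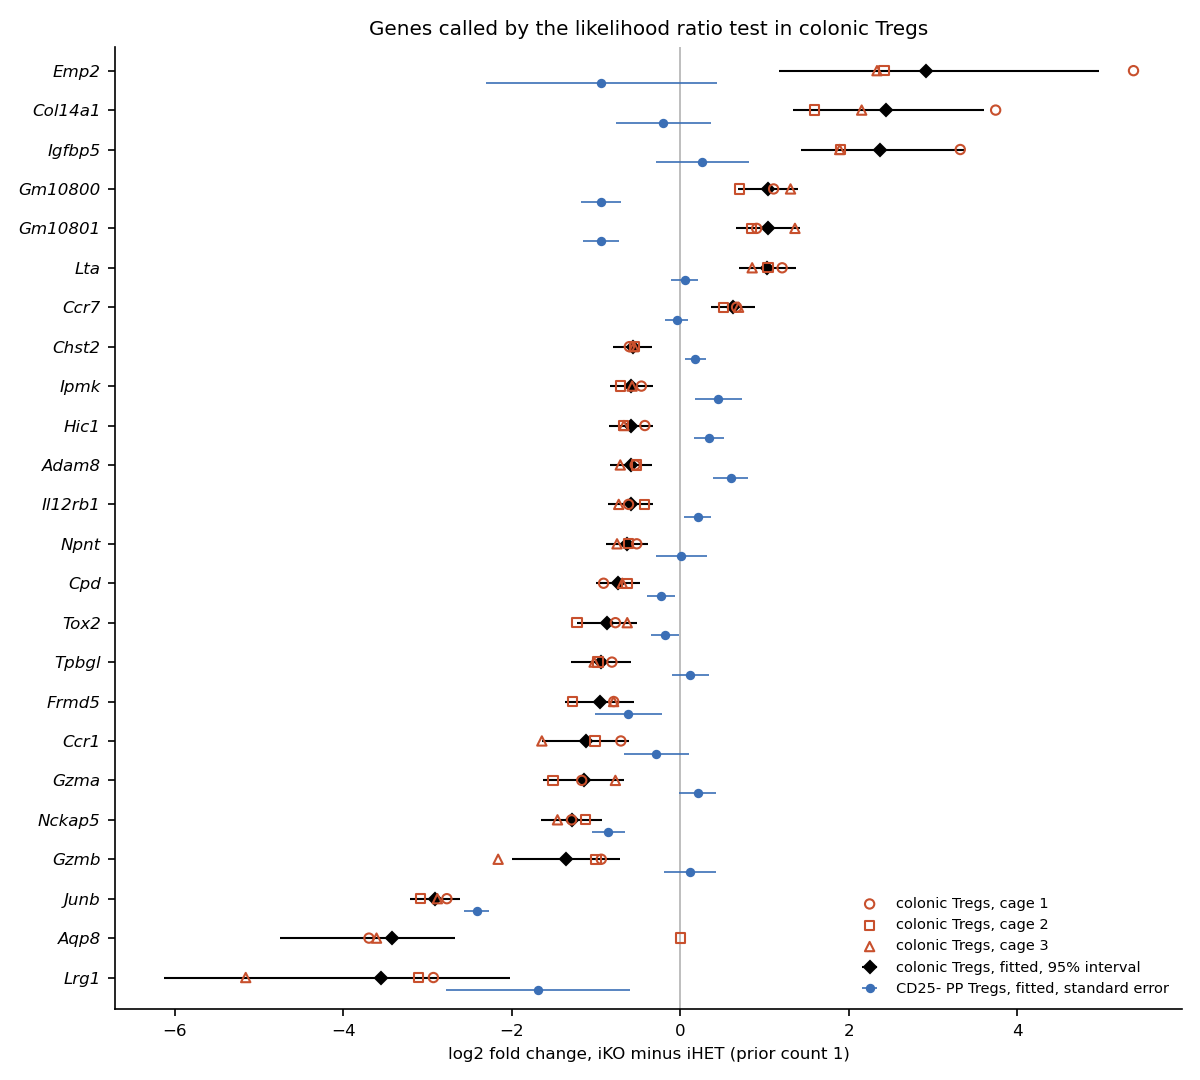
Log2 fold changes (iKO minus iHET, prior count 1) of 24 of the 25 genes called by the likelihood ratio test in colonic Tregs. Black diamonds with 95% intervals are the fitted values, open orange symbols the differences within each cage, and blue points with standard errors the fit in CD25- PP Tregs, which is not drawn for Aqp8. Junb lies at -2.91 in the colon and -2.42 in PP, while most other blue points lie closer to 0 than the diamonds. The genes were picked by a test on the colonic libraries, which favours larger values there.

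A last group of called genes is not typical of T cells. Aqp8, a water channel of colonic epithelium, was at 6.61, 0 and 12.2 CPM in iHET and at 0.482, 0 and 0.975 CPM in iKO mice, so that cage 2 gave no reads in either genotype. Lrg1, a secreted glycoprotein, was at 0.207, 15.1 and 1.08 against 0, 1.73 and 0 CPM, and a single iHET library held most of its reads. Igfbp5, a secreted binding protein of insulin-like growth factors made by stromal cells, was at 1.34, 1.13 and 0.923 CPM in iHET and at 13.7, 4.29 and 3.504 CPM in iKO mice. Col14a1, a fibroblast collagen, was at 0.620, 5.43 and 0.923 against 8.67, 16.4 and 4.21 CPM. Emp2, a membrane protein of epithelia, was at 0, 0.491 and 1.21 against 1.26, 2.75 and 6.22 CPM. These levels were all below 20 CPM. The likelihood ratio adjusted p was 2.19e-05 for Aqp8, 0.00242 for Lrg1, 0.00467 for Igfbp5, 0.0137 for Col14a1 and 0.0274 for Emp2.

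Markers of other cells moved beside them in part. The 7 tested markers of stroma and endothelium all had a log2 fold change above 0 (median 1.02), with groups that did not overlap for 1 (3.81% of all genes tested were higher without overlap). Their median was 0.02, 0.97 and 1.92 without cage 1, 2 or 3. Col3a1 was at 30.9, 260 and 137 CPM in iHET and 596, 461 and 35.4 CPM in iKO mice, so it was higher in the iKO mice of cages 1 and 2 and lower in that of cage 3. Of 15 epithelial markers, 13 were higher (median 0.36, or 1.18, 0.62 and -0.71 without cage 1, 2 or 3). Epcam was at 61.5, 117 and 69.3 CPM in iHET and 39.8, 104 and 174 CPM in iKO mice. The part of these transcripts in the values of Aqp8, Lrg1, Igfbp5, Col14a1 and Emp2 was not tested. Of 9 tested markers of B and plasma cells 5 were lower (median -0.10, or -0.07, -0.85 and 0.26 without cage 1, 2 or 3), and of 10 of myeloid cells 7 (median -0.14, or -0.47, -0.83 and 0.61 without cage 1, 2 or 3). Of 6 tested markers of CD8, NK and innate lymphoid cells 2 were lower (median 0.17, or 0.04, 0.18 and 0.60 without cage 1, 2 or 3), and of 3 of mast cells and basophils 2 (median -0.37, or -0.20, -0.59 and -0.24 without cage 1, 2 or 3). None of these markers was called. Cd8a was at 0.668 to 1.10 CPM in all libraries, and no listed marker of another cell type was at 3 counts or fewer in every library.

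**Figure D4:**
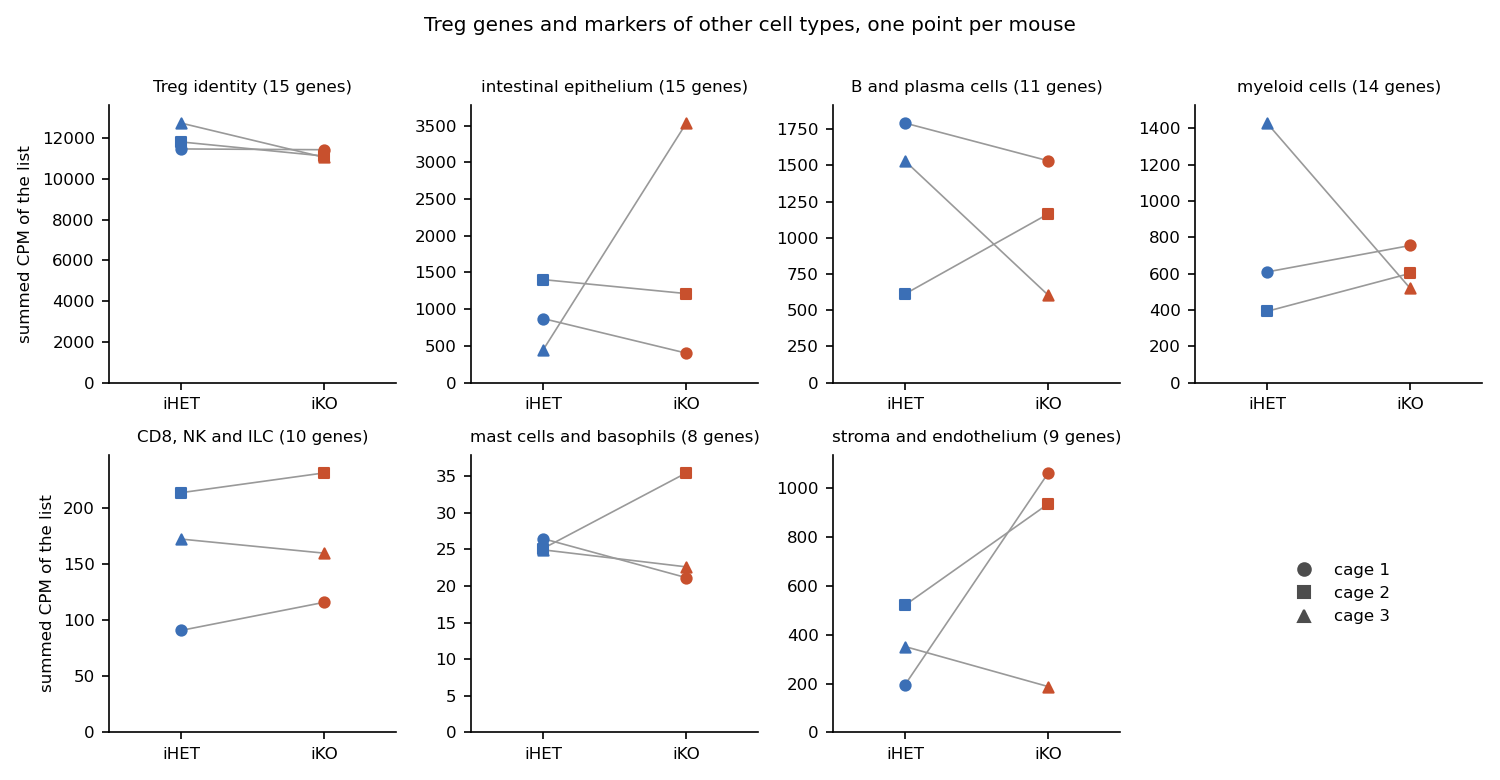
Summed CPM of the 15 Treg identity genes and of 6 lists of markers of other cell types in each colonic library, on linear axes from 0. Points are mice (blue iHET, orange iKO), grey lines join the mice of a cage, and the number of genes summed is in brackets. Treg identity lies between 11062 and 12748 CPM, while the epithelial sum reaches 3533 in 1 iKO mouse and the stromal sum is 1062 and 935 in 2 iKO mice.

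Gm10800 and Gm10801 are predicted genes, neighbours on chromosome 2 that resemble repeats elsewhere, and their reads are of uncertain origin. Gm10800 was at 45.7, 211 and 224 CPM in iHET and 98.4, 344 and 555 CPM in iKO mice. The likelihood ratio adjusted p was 2.19e-05 for Gm10800 and 0.00106 for Gm10801, and both genes were also among those that differed most between cages.

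Cage had its own differences. The quasi-likelihood test of the cage term called 0 genes (1287 at an unadjusted p under 0.05, 7.89%), and the likelihood ratio test 183 (1.12%). Between the female cages 2 and 3 the quasi-likelihood test again called 0 (1308 at an unadjusted p under 0.05, 8.02%). Xist, the transcript of the inactive X chromosome, followed the labelled sex. Fosb, an AP-1 gene that cell dissociation induces, stood at 1440 (iHET) and 1177 CPM (iKO) in cage 2 and at 540 to 607 CPM in the other cages. The heat shock gene Hspb1 was at 24.3 and 27.5 CPM in cage 2 and at 2.44 to 17.1 CPM elsewhere. Of 15 dissociation and heat shock genes, 5 were lower and 10 higher in iKO mice (median 0.05, or 0.16, 0.16 and -0.12 without cage 1, 2 or 3), and none was called.

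Metabolic and cell state lists showed no called gene. Of 17 glycolysis genes 10 were lower (median -0.04, or -0.12, -0.02 and 0.0035 without cage 1, 2 or 3), and of 15 genes of fatty acid oxidation 9 were higher (median 0.06, or 0.17, 0.21 and -0.07 without cage 1, 2 or 3). Acaa2, the last enzyme of mitochondrial beta oxidation, was at 54.3, 67.1 and 62.8 CPM in iHET and 94.3, 70.9 and 99.9 CPM in iKO mice, without overlap (log2 fold change 0.52, 95% interval 0.10 to 0.93). The metabolic genes that the study names in patch Tregs were low here, and 5 of 6 tested were higher (median 0.61, or 1.49, 0.90 and -0.55 without cage 1, 2 or 3). They included the epithelial marker Fabp2, and summed to 178 CPM in the iKO mouse of cage 3 and to 19.5 to 69.4 CPM in the others. Of 13 genes of IL-2 and STAT5 feedback, 7 were lower (median -0.01, or -0.02, 0.03 and 0.0027 without cage 1, 2 or 3). Pim1 was at 313 CPM in the iKO mouse of cage 1 and at 1372 to 1823 CPM in the other libraries. Of 14 NF-kB genes 12 were lower (median -0.13, or -0.16, -0.13 and -0.06 without cage 1, 2 or 3), with log2 fold changes between -0.29 and 0.06 and no groups apart. Of all genes tested, 49.2% were lower. Cell cycle genes (11 of 16 lower, median -0.14, or -0.77, -0.36 and 0.30 without cage 1, 2 or 3) were highest in the iHET mouse of cage 3, where Mki67 was at 69.3 CPM against 22.4 to 35.2 CPM elsewhere. Interferon-stimulated genes (9 of 15 lower, median -0.15, or 0.19, -0.45 and -0.08 without cage 1, 2 or 3) were highest in the iHET mouse of cage 1, where Ifit1 was at 69.4 CPM against 12.7 to 31.4 CPM elsewhere.

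The differences were set beside those in CD25- PP Tregs, sorted from Peyer's patches (PP) of 2 iHET and 2 iKO mice of the same line. The colonic Tregs were not sorted on CD25, so organ and the CD25 sort cannot be told apart. All 10 libraries of the line were fitted together, with 18626 genes of at least 1 CPM in at least 2 libraries. Same-numbered PP libraries were fitted as pairs, whereas the study compared its PP groups without pairs. A difference in the genotype effect between colonic and PP Tregs was called for 0 genes by the quasi-likelihood test (751 at an unadjusted p under 0.05, 4.03%). The likelihood ratio test called 23 (0.123%). Of the 25 genes, 3 were among these 23, namely Gzma, Gm10800 and Gm10801. The 25 genes were picked by a test on the colonic libraries, which favours larger fold changes there than in PP Tregs. The differences below reuse those colonic values. In PP Tregs Gzma was at 168 and 125 CPM in iHET and at 154 and 181 CPM in iKO mice. The difference of its fold changes, colon minus PP, was -1.34 (95% interval -2.02 to -0.66, adjusted p = 0.959 by the quasi-likelihood and 0.0348 by the likelihood ratio test). Gzmb was at 159 and 117 against 138 and 159 CPM in PP, with a difference of -1.48 (95% interval -2.42 to -0.53, likelihood ratio adjusted p = 0.150). Adam8 was at 41.2 and 44.2 against 45.8 and 90.5 CPM in PP, with a difference of -1.18 (95% interval -1.80 to -0.56, likelihood ratio adjusted p = 0.0502). Lta was at 30.2 and 39.0 against 34.7 and 36.5 CPM in PP, where its log2 fold change was 0.05 (standard error 0.160). Nckap5 was low in PP, at 7.15 and 3.74 against 4.23 and 1.89 CPM, with a log2 fold change of -0.85 there and a difference of -0.43 (95% interval -1.02 to 0.16). Junb had a log2 fold change of -2.42 in PP, and its difference of -0.49 (95% interval -0.95 to -0.03) was called by neither test.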

How the data were processed

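RNA-seq counts per gene were used as deposited by the authors, who trimmed reads with Trim Galore, aligned forward reads to mm10 with STAR, keeping unique matches only, and assigned them with featureCounts without strand. Reads shared by overlapping genes or near-identical copies were therefore dropped. The deposited counts are not normalized or filtered. Symbols and positions come from GENCODE M21 (GRCm38), which matched 55394 of 55487 gene IDs. The 6 colonic libraries were fitted in edgeR 4.0.16 (R 4.3.3) with terms for cage and genotype, TMM normalization, a filter of at least 1 CPM in at least 3 libraries, a prior count of 1 and Benjamini-Hochberg adjustment over all genes. CPM were scaled by TMM. RPKM used the exon bases of each gene. Standard errors and intervals carry the quasi-likelihood dispersion, with a median of 5.46 degrees of freedom.

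The main test was the quasi-likelihood test, and the likelihood ratio test of the study and DESeq2 1.42.0 were alternatives, as were other normalizations and filters, no block for cage, the 10 libraries of the inducible line together and leaving out cages. Cages come from the study's methods (1 iHET and 1 iKO mouse each), while the labels give only a number. As a check, deviations from the genotype means correlated between same-numbered libraries with r = 0.06, 0.29 and -0.09 for numbers 1, 2 and 3. P-values set the genotype effect against the spread between these mice that the cage term leaves, with a dispersion partly shared across genes. The likelihood ratio test takes that dispersion as known. Genes named are those called by either edgeR test, those the study names for colonic Tregs and members of 27 lists written by hand. Members and lists were chosen with earlier results of these data known. Genes outside the rule (Xist, Hspb1, Trmt1) were chosen after their values were seen. Reads carry no molecular identifiers, so the 3 count floor covers counting error only. Figures were drawn with matplotlib 3.10.9. The constitutive line was not used here. Results that need some withheld genes are not reported here.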

Additional observations from a re-analysis of the deposited data

How the results depend on the processing

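With 3 mice per genotype, the 95% interval of a log2 fold change had a median half-width of 0.54. The number of genes called between iKO and iHET Tregs was 1 by the quasi-likelihood test, 25 by the likelihood ratio test, 50 by DESeq2 (35 lower, 15 higher) and 24 of 39730 genes with no filter on low counts; the cause was not tested. With no replicate block it was 1, and 5 by the likelihood ratio test, an alternative added after the data were seen. Leaving out each cage gave 0 to 2 calls by the quasi-likelihood test and 18 to 155 by the likelihood ratio test (also added after the data were seen), which called 155 without cage 3, 25 without cage 1 and 18 without cage 2. Of the 25 genes called with all cages, these fits shared 8 without cage 1, 5 without cage 2 and 19 without cage 3. Junb kept its direction throughout, with a log2 fold change of -2.98 to -2.81 over the fits that left out a cage, but its adjusted p was 0.363 without cage 1 and 0.147 without cage 2 in the quasi-likelihood test, where 2 mice per genotype remained. The other 24 genes kept their direction in each alternative in which they were tested. List medians without each cage stand beside each list whose median turned or moved by over 1.5 times. With no filter on low counts, the median of the mast cell and basophil markers turned to 0.07.

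The cage term was called for 183 genes by the likelihood ratio test and 246 with no filter, against 0 by the quasi-likelihood test, and for 0 to 93 when a cage was left out. The interaction of organ (with its CD25 sort) and genotype was called for 23 genes by the likelihood ratio test and 307 with no filter, against 0 otherwise.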

Other observations

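DESeq2's Wald test called 25 genes that the likelihood ratio test did not, 17 lower and 8 higher in iKO Tregs. They are named here because that test alone called them, and were chosen after their values were seen. Among the lower ones, Lgmn, which encodes the lysosomal protease legumain, was at 114, 177 and 197 CPM in iHET and 95.3, 98.7 and 91.9 CPM in iKO mice (log2 fold change -0.73, standard error 0.176). Pcsk1, a proprotein convertase, was at 42.4, 69.3 and 86.8 against 29.5, 46.3 and 37.3 CPM. Galc, a lysosomal galactosylceramidase, was at 24.2, 36.9 and 27.6 against 16.7, 18.4 and 11.9 CPM, without overlap. Hlf, a leucine zipper factor, was at 30.8, 35.9 and 31.3 CPM in iHET and at 20.02, 20.19 and 19.99 CPM in iKO mice. Among the higher ones, Izumo1r, which encodes folate receptor 4, was at 245, 140 and 207 CPM in iHET and 321, 183 and 320 CPM in iKO mice, higher in each cage although the groups overlapped. Gstm1, a glutathione transferase, was at 3.20, 6.78 and 4.42 against 7.92, 13.9 and 37.3 CPM.

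Trmt1, also called by DESeq2 alone, lies near Junb on chromosome 8, from 84686307 to 84699808. It was higher in each cage and without overlap, at 35.1, 36.7 and 34.5 CPM in iHET and 58.6, 53.9 and 53.7 CPM in iKO mice (log2 fold change 0.64, likelihood ratio adjusted p = 0.162).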
